A study of Drosophila melanogaster with 6 samples.

Results

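A set of 386 chromatin regions that were open in every one of 6 ATAC-seq samples of Drosophila midgut progenitors stood higher in the peak ranking of all 3 H1 RNAi samples than in that of any of the 3 controls. Overlapping peaks (1 bp or more) of the 6 deposited peak lists merged into 11854 regions, of which 4366 were called in all 6 lists and 4247 of these lay on the major arms (2L, 2R, 3L, 3R and X). Each region was given, in each list, the percentile of its best peak by the fold enrichment that the authors' peak caller had written, with 100 for the strongest peak of that list. The 386 regions were chosen by these percentiles, as those whose lowest H1 RNAi percentile exceeded their highest control percentile. They made up 9.09% of the 4247 shared regions, and 446 regions (10.5%) had the reverse order. The gap between the lowest H1 RNAi and the highest control percentile is called the margin here. Since the percentiles made the choice, they are described without a test, and a higher rank within a list is not by itself a gain in accessibility.

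Linker histone H1 binds the nucleosome where DNA enters and leaves it and helps to fold nucleosome arrays into compact fibres. In flies it is abundant in silent chromatin and is needed to keep heterochromatin and transposons repressed. The progenitors of the adult midgut are intestinal stem cells, which divide throughout life, and enteroblasts, their daughters on the way to becoming enterocytes. Notch, EGFR, JAK/STAT, Hippo and Dpp signals act on these cells, and transcription factors such as Escargot and Sox21a set their state. In ATAC-seq the Tn5 transposase cuts DNA that is not covered by nucleosomes, so peaks mark promoters and enhancers that factors can reach.

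The 3 H1 RNAi samples came from flies that carried the driver esgts, a UAS-GFP reporter and, in addition, UAS-H1 RNAi 1, and the 3 controls from flies with esgts and UAS-GFP but no RNAi transgene. All were females, 3 days old at the start, held for 2 days at 18 °C and then, on poor food, for 4 days at 29 °C, which switched on the driver in both groups. For each replicate, lettered A, B and C in both groups, 70 guts were pooled and 50000 to 100000 GFP-positive cells were sorted. The escargot driver is active in stem cells and enteroblasts alike, so each sample mixes both, only 1 RNAi line is named, and the knock-down of H1 cannot be read from peak lists. The comparison asks which open sites gain or lose prominence when progenitors are depleted of H1.

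The H1 RNAi lists A, B and C held 6564, 9827 and 7261 peaks, and the control lists 6142, 10872 and 8602. Read depth is not given in these lists. Of all 13962 protein-coding genes, 35.2, 45.9 and 30.3% carried a peak within 500 bp of either end in H1 RNAi A, B and C, against 29.0, 53.3 and 45.7% in controls A, B and C. Progenitor genes carried peaks at their ends in most cases, with 19, 22 and 20 of 24 listed genes in H1 RNAi A, B and C and 19, 23 and 22 in controls A, B and C (79.2 to 95.8% over the 6 samples). The enteroendocrine list had peaks at 5 to 8 of 29 genes in H1 RNAi samples and 6 to 10 in controls, and the enterocyte list at 13 to 15 of 45 genes in H1 RNAi samples and 10 to 19 in controls. Hormone genes such as Tk, AstA, AstC and Mip had no peak at a gene end in any list. Visceral muscle genes had one at 6 to 8 of 23 in H1 RNAi samples and 5 to 9 in controls, and neuronal genes at 8 to 11 of 23 in H1 RNAi samples and 9 or 10 in controls. Hemocyte genes had one at 4 or 5 of 13 in H1 RNAi samples and 4 to 6 in controls, and tracheal genes at 3 to 5 of 14 in H1 RNAi samples and 4 or 5 in controls. Fat body genes had one at 3 or 4 of 13 in H1 RNAi samples and 1 to 5 in controls, and germline and follicle genes at 4 to 10 of 26 in H1 RNAi samples and 5 to 10 in controls. The part of any such cells in the results below was not tested.

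In the H1 RNAi lists the 386 regions ranked high among the shared sites, and in the control lists they ranked near the middle of the shared regions or below it. Their median percentile was 86.5, 88.9 and 87.2 in H1 RNAi A, B and C, and 63.9, 75.4 and 69.4 in controls A, B and C. All 4247 shared regions had medians of 64.4, 75.3 and 66.9 in the H1 RNAi lists and 63.0, 78.5 and 72.8 in the control lists. Between 74.9 and 82.1% of the 386 reached the 75th percentile in the H1 RNAi lists, against 32.1 to 51.0% in the control lists. In the authors' own fold enrichment, which is relative to the background of each library, their medians were 6.88, 8.31 and 6.13 in H1 RNAi A, B and C (4.92, 6.38 and 4.32 over all shared regions), and 4.42, 4.17 and 5.0 in controls A, B and C (4.38, 4.36 and 5.22 over all shared regions).

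**Figure D1:**
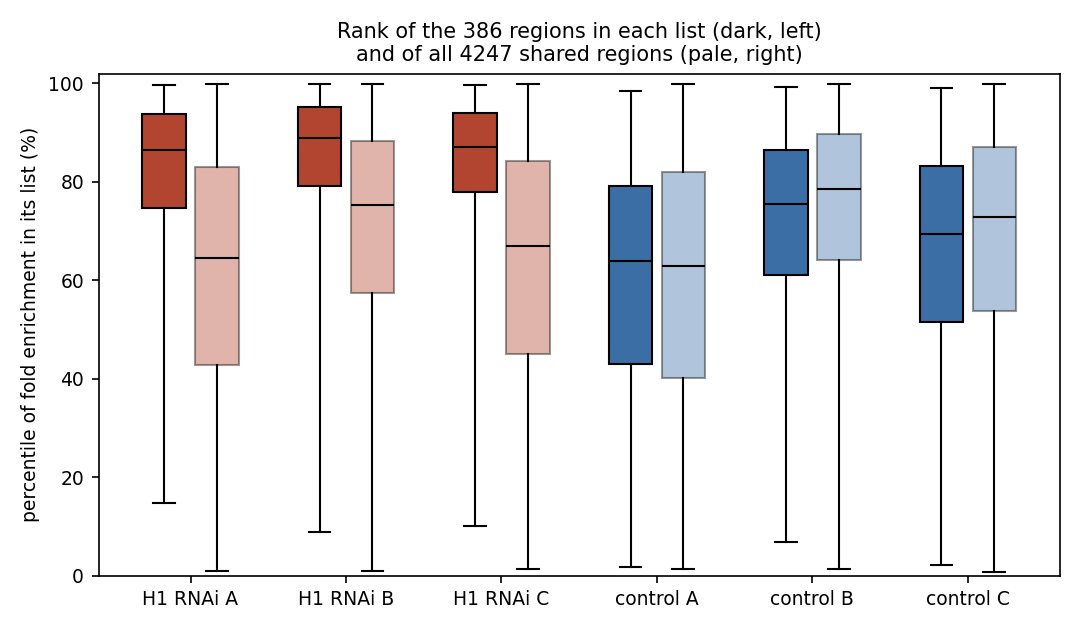
Percentile of fold enrichment within each list (y axis, %) for the 386 regions (dark boxes) and for all 4247 shared regions (pale boxes) in the 3 H1 RNAi lists (red) and the 3 control lists (blue). Boxes give the quartiles with the median as a line, and whiskers the lowest and highest values. The dark boxes sit above the pale ones in H1 RNAi, with medians of 86.5 to 88.9, and beside or below them in controls, with medians of 63.9 to 75.4.

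Most margins were narrow. The median margin was 3.88 percentile points and the range 0.0174 to 28.5. A margin of at least 1 point was found in 320 of the 386 regions, one of at least 5 points in 166, one of at least 10 points in 82 and one of at least 20 points in 18. The mean percentile over the 3 H1 RNAi lists exceeded that over the 3 controls by a median of 16.0 points, against a median of -2.72 over all shared regions. Control B held the highest control percentile in 254 of the 386 regions (65.8%), and control A the lowest in 219 (56.7%). H1 RNAi A held the lowest H1 RNAi percentile in 168 regions, H1 RNAi C in 144 and H1 RNAi B in 74.

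At the edge of the rule the regions could hardly be told apart from those that missed it. The 3 smallest margins belonged to regions in CG9331 (2L:20823514-20824694), bun (2L:12483040-12484512) and jigr1 (3R:25646898-25647537), with 0.0303, 0.0240 and 0.0174 points. The 3 shared regions that missed by least lay in sgg (X:2658202-2658840), tai (2L:9205080-9205869) and next to Rilpl (X:1398766-1400101), with margins of -0.0110, -0.0205 and -0.0211 points. The region in jigr1 stood at 61.1, 67.7 and 67.0 in H1 RNAi A, B and C and at 61.1, 55.5 and 51.6 in controls A, B and C, so that H1 RNAi A and control A were level.

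List length enters a within-list percentile, because a long list adds weak peaks below the shared ones. With percentiles taken among the 4247 shared regions alone, which removes list length, 576 regions (13.6%) ranked higher in all 3 H1 RNAi lists and 429 lower, and 337 of the 386 (87.3%) were among the 576. With every list cut to its 6142 best peaks by q-value, 504 of 3705 shared regions (13.6%) ranked higher, and 315 of the 386 (81.6%) overlapped one of them. Ranking by −log10 q in place of fold gave 296 regions higher (6.97%) and 619 lower, and held 228 of the 386 (59.1%). All 3 of these settings held 191 of the 386. The larger side thus turned with the scale: more regions were lower than higher by the fold percentile in the whole list and by −log10 q, and more were higher than lower by percentile among shared regions and with lists of equal length.

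The same count was made for the 18 ways of putting 3 lists on top that mix the groups, as a description of these 6 lists. By percentile in the whole list these gave 17 to 913 regions with a median of 91.5. The 386 regions with the H1 RNAi lists on top were exceeded by 462 with H1 RNAi B, H1 RNAi C and control B on top and by 913 with H1 RNAi B, control B and control C on top, and H1 RNAi B and control B have the longest lists. Among shared percentiles the mixed counts ran between 98 and 334, against 576 higher and 429 lower in H1 RNAi. In lists of equal length they ran between 68 and 315, against 504 higher and 375 lower.

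**Figure D2:**
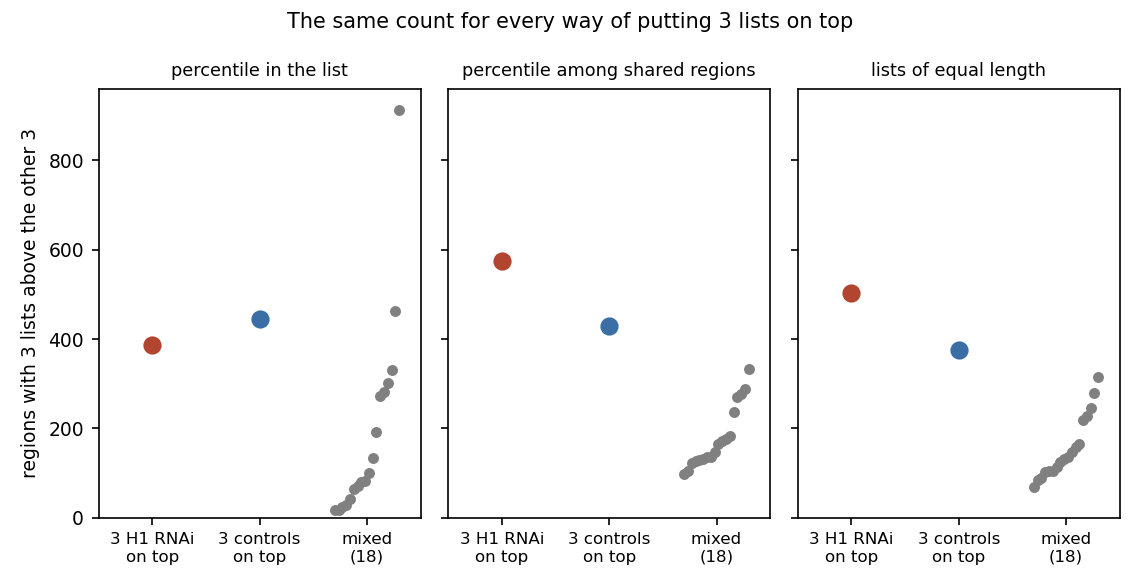
Number of shared regions for which the 3 lists named on the x axis all rank above the other 3 (y axis), on 3 scales of rank. Red points have the H1 RNAi lists on top, blue points the controls, and grey points are the 18 mixed ways, sorted by count. By percentile in the list 2 grey points, at 462 and 913, exceed the red point at 386, and on the other scales the red points at 576 and 504 stand above the highest grey points at 334 and 315.

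Choices made on 2 of the letters were also described in the third, by leaving out the A, B or C lists of both groups in turn. Among the 4247 shared regions, those with both H1 RNAi percentiles above both control ones in the 2 remaining letters were chosen. They were then looked up in the third letter. Its percentiles were not used in that choice, but its lists had taken part in defining the shared regions. Of 745 regions chosen without the A lists, 537 (72.1%; exact 95% interval 68.7 to 75.3%) had a higher percentile in H1 RNAi A than in control A, against 51.2% of all shared regions. Without the B lists the share was 577 of 746 (77.3%; 74.2 to 80.3%), against 39.1%, and without the C lists 473 of 656 (72.1%; 68.5 to 75.5%), against 41.2%. Among shared percentiles, where the share over all regions lay between 49.1 and 50.9%, it was 62.3, 81.0 and 73.0% for A, B and C. The intervals count regions and not samples, and the letters pair no samples by the labels.

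**Figure D3:**
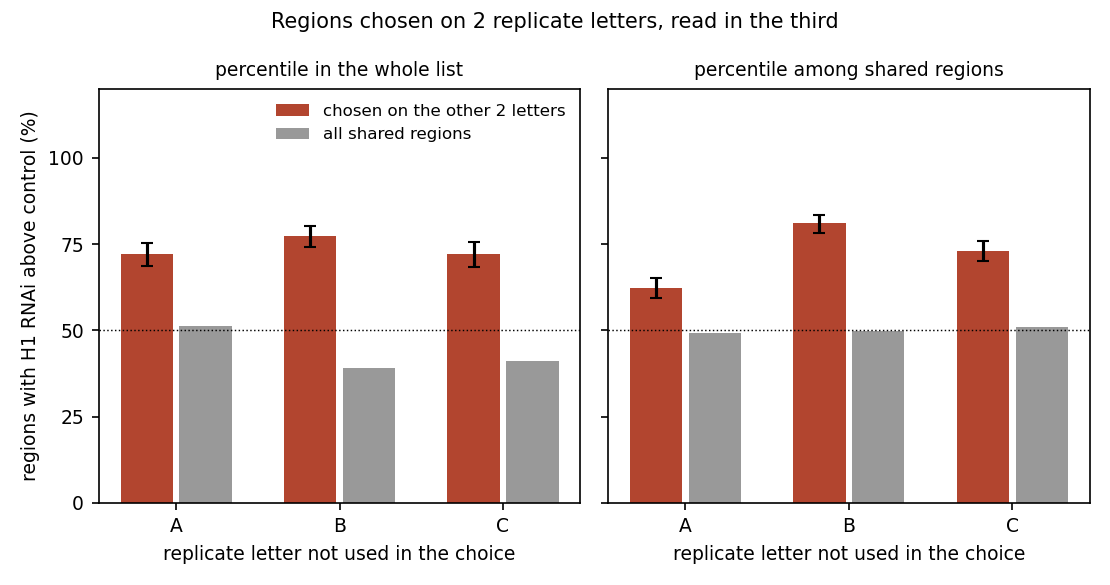
Share of regions with a higher percentile in H1 RNAi than in control (y axis, %) in the replicate letter whose percentiles were not used to choose them (x axis), by percentile in the whole list (left) and among shared regions (right). Red bars are the chosen regions with exact 95% binomial intervals, grey bars all 4247 shared regions, and the dotted line marks 50%. The red bars lie between 62.3 and 81.0% and each stands above its grey bar.

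The 386 regions lay inside genes more often, and at gene ends less often, than shared regions in general. By the summit of the strongest peak, 239 (61.9%; exact 95% interval 56.9 to 66.8%) lay in the body of a protein-coding gene, 100 (25.9%; 21.6 to 30.6%) within 500 bp of either end of one and 47 (12.2%; 9.09 to 15.9%) between genes. Among all shared regions 47.6% lay in gene bodies, 41.4% at gene ends and 11.1% between genes. The 446 regions ranking lower in H1 RNAi were at gene ends in 47.8% and in gene bodies in 40.4%. Read the other way, 11.8% of shared regions in gene bodies ranked higher in H1 RNAi, 10% of those between genes and 5.69% of those at gene ends. The gene table gives no exons or strand, so promoters are counted with the far ends of genes, and introns were not told apart from exons.

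**Figure D4:**
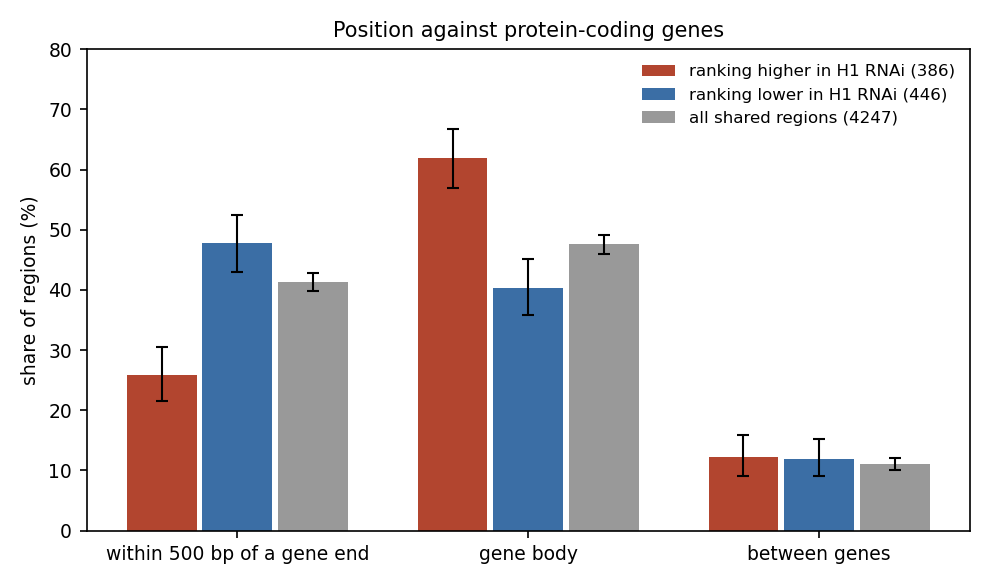
Share of regions (y axis, %) at gene ends (500 bp or less away), in gene bodies or between genes (x axis). Red bars are the 386 regions ranking higher in H1 RNAi, blue bars the 446 ranking lower and grey bars all 4247 shared regions, with exact 95% binomial intervals. Gene bodies hold 61.9% of the higher regions, against 47.6% of all shared ones, and gene ends 25.9% against 41.4%.

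The gene-end share of the 386 regions was below that of all shared regions at every level of signal, but by little at the strongest. All shared regions were put into 5 equal classes by their mean percentile over the 6 lists. From the weakest class to the strongest, 3 of 27, 11 of 54, 17 of 79, 29 of 108 and 40 of 118 members lay at gene ends. These are shares of 11.1, 20.4, 21.5, 26.9 and 33.9%, and the weakest class rests on few regions. All shared regions of the same classes had 41.1, 43.9, 44.1, 39.5 and 38.4%. The median distance of the 386 summits to the nearest gene end was 1792.5 bp, against 967 bp over all shared regions. Their longest host gene had a median length of 20563 bp, against 14330.5 bp. Leaving out 1 list at a time gave gene-end shares of 23.6 to 30.7%, and all shared regions then had 40.7 to 43.2%.

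Sample by sample, however, the order of gene-body and gene-end regions did not follow the groups alone. Over all shared regions, the median percentile of gene-body regions minus that of gene-end regions was 3.52, 2.40 and 11.4 points in H1 RNAi A, B and C, against 3.57, -4.79 and -5.21 points in controls A, B and C. Control A thus stood among the H1 RNAi samples, and controls B and C stood apart. The means were 5.78 ± 4.92 points in H1 RNAi and -2.14 ± 4.96 points in controls (SD, n = 3 each; exact two-sided permutation p = 0.3, where the smallest p of this design is 0.1). Controls B and C were also the lists with wide peaks, with a median called width over shared regions of 853 and 812 bp, against 459 bp in control A and 532, 557 and 475 bp in H1 RNAi A, B and C. The part of peak width in the position of the 386 regions was not tested.

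Narrow regions were frequent among the 386. Their merged width had a median of 851 bp and a range of 221 to 2968 bp, against a median of 924 bp over all shared regions. Under 500 bp were 79 of them (20.5%), against 9.98% of all shared regions and 3.81% of the regions ranking lower. Read the other way, 18.6% of the 424 shared regions under 500 bp ranked higher in H1 RNAi and 4.01% lower. In the classes from 500 to under 1000 bp, from 1000 to under 2000 bp and of 2000 bp or more, 7.21, 8.67 and 10.7% ranked higher. Narrow members lay at gene ends in 32.9%, against 36.3% of all shared regions of that width. Median called widths of the 386 were 482, 536.5 and 466.5 bp in H1 RNAi A, B and C (532, 557 and 475 bp over all shared regions). In controls A, B and C they were 454, 766 and 754.5 bp (459, 853 and 812 bp). Width is independent of the ranked value only in part, so it is not separate from the choice, and its part in these shares was not tested.

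The median summit positions of the groups mostly lay close together. In each list the summit of the best peak was taken, and its median position over the lists of a group was formed. These group positions were a median of 12.5 bp apart (27 bp over all shared regions). In 350 of the 386 (90.7%) the gap was at most 100 bp, against 82.2% of all shared regions. Summits of single lists can lie further apart than these medians. Every list had exactly 1 peak in 262 of the 386 regions (67.9%), against 72.0% of all shared regions. In the others the caller split the region in some list, and 2 or more peaks were called in 14.0, 27.2 and 20.2% of the 386 in H1 RNAi A, B and C and in 17.6, 6.74 and 2.33% in controls A, B and C. A region holding several peaks takes the best of them, so splitting bears on its percentile, and with the mean percentile of the peaks 281 of the 386 were held.

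Chromosome arm 2L contributed few of the regions. It held 41 of the 386, which is 5.59% of its 734 shared regions (exact 95% interval 4.04 to 7.50%), against 9.52% on 2R, 10.8% on 3L, 8.73% on 3R and 10.4% on X. By percentile among shared regions 9.26% of the 2L regions ranked higher, against 14.5% of those on the other arms, and in lists of equal length 9.41% against 14.5%. The nearest shared neighbour of a member also ranked higher in 49 cases (12.7%) and ranked lower in 32 (8.29%), beside 9.09 and 10.5% of all shared regions.

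Genes with a member in their locus, meaning the gene and 2 kb on either side, numbered 515, and 361 of the 386 regions lay in at least 1 such locus. How many of all shared regions lie in a gene locus was not counted, so these counts mark no trait of the members. The 20 regions with the widest margins in loci of named genes are described next by what those genes do. All coordinates are those of the dm6 build, and all values are percentiles of fold within a list, in the order of replicates A, B and C.

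Among signalling genes, the widest margin of all was found in the body of Raf, the kinase that carries the EGFR signal to MAP kinase (X:2300663-2302018, 5688 bp from the nearest gene end). This region stood at 62.0, 69.3 and 75.6 in H1 RNAi A, B and C, against 16.0, 33.6 and 19.5 in controls A, B and C. The lowest H1 RNAi value, in A, exceeded the highest control value, in B, by 28.5 points. A further region of the Raf locus lay at an end of the neighbouring CG2865 (X:2293369-2294039) and stood at 84.7, 86.3 and 86.7 in H1 RNAi A, B and C and at 58.3, 75.4 and 57.4 in controls A, B and C. A region in neur, the ubiquitin ligase that lets Delta signal to Notch (3R:9033648-9034480), stood at 83.9, 77.6 and 85.4 in H1 RNAi A, B and C, against 49.3, 55.6 and 44.3 in controls A, B and C. One in rdx, a ubiquitin ligase adaptor induced by Hedgehog signalling (3R:14017599-14018212), stood at 94.0, 94.5 and 89.0 in the H1 RNAi lists, against 31.2, 66.4 and 66.7 in the control lists, and control A was far below the other 2 controls there. At an end of Coop, a corepressor of Wingless target genes next to wech (2R:7490491-7490866), the values were 73.6, 68.1 and 65.1 in H1 RNAi A, B and C and 42.7, 45.9 and 29.9 in controls A, B and C.

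Hormone and clock factors came next. EcR, the receptor for the steroid hormone ecdysone, had a region in its body, 657 bp from a gene end (2R:6168322-6169722), at 92.4, 91.8 and 93.6 in H1 RNAi A, B and C, against 59.0, 64.0 and 50.4 in controls A, B and C. The H1 RNAi values were close together there, and the margin was 27.8 points. In vri, a bZIP repressor of the circadian clock (2L:5296976-5297281), a region of 306 bp stood at 75.4, 77.3 and 79.2 in H1 RNAi A, B and C, against 37.1, 48.0 and 25.2 in controls A, B and C. A region in cu, which encodes a deadenylase related to nocturnin (3R:11198911-11200838), stood at 93.7, 90.1 and 90.1 in the H1 RNAi lists, against 63.2, 64.1 and 67.7 in the control lists. Margins there were 27.4 points for vri and 22.4 points for cu.

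Transcription factor genes of cell fate included Sox21a, the Sox factor that drives enteroblasts to differentiate. Its region at a gene end (3L:14108115-14108422, 308 bp) stood at 78.6, 65.7 and 76.1 in H1 RNAi A, B and C, against 25.5, 41.4 and 24.7 in controls A, B and C. H1 RNAi B was the lowest of its group and control B the highest, and the median summit positions of both groups fell on the same base. A separate site 1442 bp away, next to the gene (3L:14109865-14110115), was called in all 3 H1 RNAi lists and in no control list. Near lbl, a homeobox gene of muscle and heart precursors, a region within 196 bp of a gene end (3R:21434145-21434538) stood at 65.2, 91.2 and 78.5 in H1 RNAi A, B and C, against 22.5, 43.4 and 42.8 in controls A, B and C. The H1 RNAi lists spread widely there, with A the lowest.

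Chromatin genes were represented by HmgD and Mi-2. HmgD encodes an HMG-box protein that is found in the chromatin of the early fly embryo before H1 appears, and a wide region in its body, shared with the locus of Tango11 (2R:21713149-21714903), stood at 85.9, 91.4 and 85.5 in H1 RNAi A, B and C, against 43.0, 58.4 and 57.5 in controls A, B and C. The margin of 27.1 points became 47.8 points by percentile among shared regions. Mi-2 encodes the nucleosome-remodelling ATPase of the NuRD complex, and its region, which also lies in Su(Tpl) (3L:19895399-19895834), stood at 80.5, 84.9 and 88.2 in the H1 RNAi lists, against 57.6, 58.4 and 53.2 in the control lists. The controls were close together there, and the margin was 22.0 points.

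A region at Hsp22 and Hsp67Bc, which encode small heat shock proteins (3L:9373405-9374071), stood at 86.5, 88.9 and 89.5 in H1 RNAi A, B and C, against 15.7, 61.8 and 53.7 in controls A, B and C. Control A was far below the other 2 controls, and the margin of 24.7 points is set by control B. Next to Der-1, which encodes a Derlin of the degradation pathway of the endoplasmic reticulum, a region of 281 bp between genes (2L:1972708-1972988) stood at 89.6, 89.8 and 89.6 in the H1 RNAi lists, against 31.3, 66.6 and 54.1 in the control lists. In Tis11, whose product promotes decay of mRNAs with AU-rich elements (X:12665064-12665517), the values were 75.5, 72.3 and 76.5 in H1 RNAi A, B and C and 41.7, 52.5 and 44.2 in controls A, B and C.

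The other wide margins of the 20 were found at an end of dpr1, an immunoglobulin-family surface protein (2R:20698286-20698794, margin 25.1), at an end of CG13506 next to wrapper, an immunoglobulin-family protein of glia (2R:22382836-22383211, 23.2), in Svil, the fly supervillin, which binds actin (3L:2489893-2490317, 23.6), at an end of Grip, a PDZ-domain scaffold gene next to fs(1)M3 (X:5965634-5966304, 26.3), in rudhira, whose product binds microtubules (X:11816445-11818911, 20.7), and in Bacc (2L:2755157-2755630, 24.7). At dpr1 the values were 75.5, 92.4 and 80.9 in H1 RNAi A, B and C, against 34.9, 50.4 and 33.4 in controls A, B and C. Bacc had the lowest H1 RNAi values of the 20, 56.8, 54.7 and 62.9 in H1 RNAi A, B and C and 12.2, 20.5 and 30.0 in controls A, B and C. In rudhira the median summit positions of the groups were 841 bp apart within a region of 2467 bp. The lists were thus not all ranked there on the same summit.

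**Figure D5:**
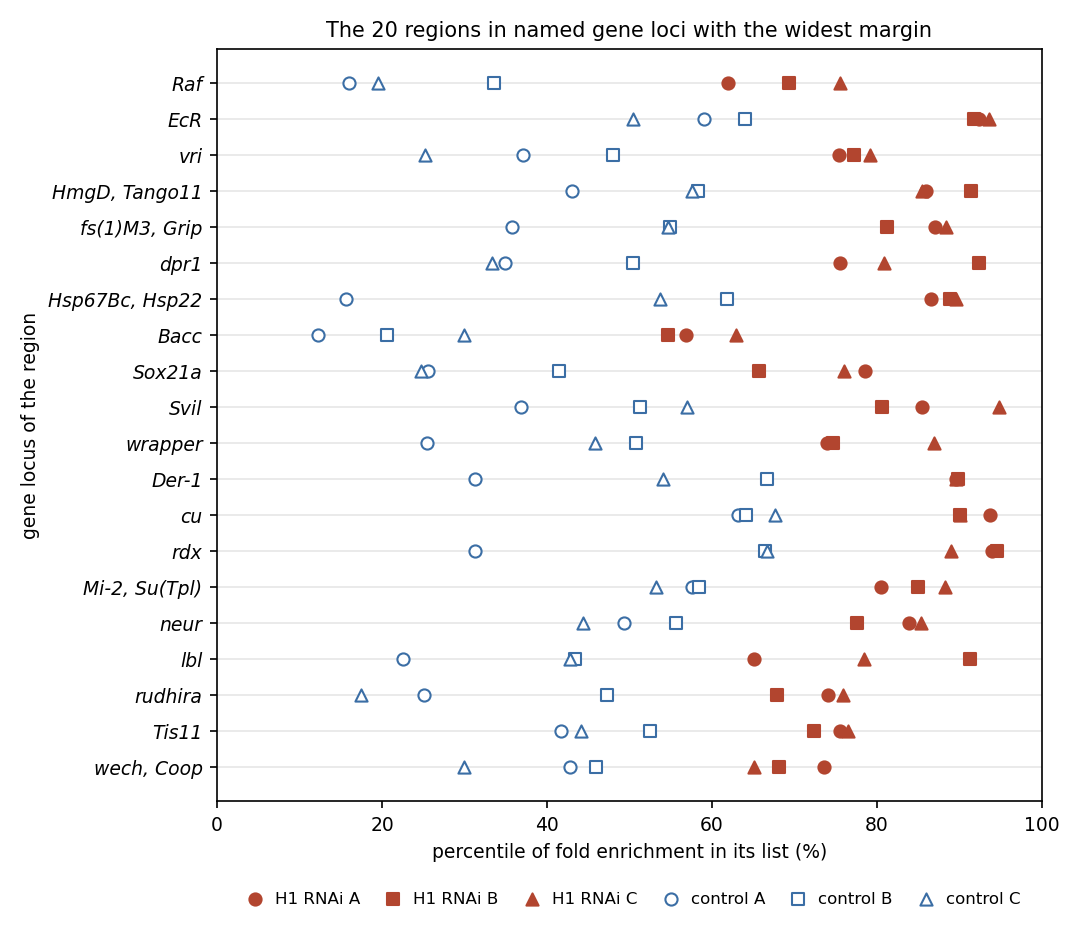
Percentile of fold enrichment within the list (x axis, %) for the 20 regions with the widest margins in loci of named genes (y axis, widest at the top). Filled red symbols are the H1 RNAi lists and open blue symbols the control lists, with circles for A, squares for B and triangles for C. Every red symbol stands to the right of every blue one in its row, as the choice requires, and the gap narrows from 28.5 points at Raf to 19.2 points at wech and Coop.

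Gene lists of pathways and cell types were set beside the 9.09% of all shared regions that ranked higher. The loci of the 30 lists together held 1032 shared regions, of which 131 (12.7%) ranked higher and 76 (7.36%) lower in H1 RNAi. By percentile among shared regions 194 of the 1032 (18.8%) ranked higher, against 13.6% of all shared regions. Where a list is given with a pair of shares, the second is by percentile among shared regions. The lists overlap, their regions are few, and no test was made on them.

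The largest list, of other transcription factors, had 36 of 227 shared regions ranking higher (15.9%, and 22.5% by percentile among shared regions) and 19 ranking lower. Some genes of this list, such as srp, pnt and br, are in further lists as well. After lbl, its widest margins were in srp, pnt and CHES-1-like. The region in srp, a GATA factor of fat body, blood and endoderm (3R:15993209-15993478), stood at 96.0, 92.6 and 92.8 in H1 RNAi A, B and C, against 28.7, 74.8 and 74.9 in controls A, B and C, with control A far below the other controls. In pnt, the ETS activator of the EGFR pathway (3R:23334178-23334748), the values were 76.4, 79.0 and 71.1 in H1 RNAi A, B and C and 57.2, 53.4 and 53.3 in controls A, B and C. CHES-1-like, a forkhead gene, had one at 83.9, 83.7 and 90.5 in the H1 RNAi lists, against 66.8, 63.9 and 60.2 in the control lists (X:7696616-7697579). At pnt and CHES-1-like the controls lay close together.

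Hox genes and developmental regulators of the kind that Polycomb proteins repress had 15 of 113 shared regions ranking higher (13.3%; 21.2% by percentile among shared regions) and 8 ranking lower. Besides srp they included both members at ptc, the Hedgehog receptor gene. Its region at a gene end (2R:8649403-8649735) stood at 81.6, 82.0 and 83.7 in H1 RNAi A, B and C, against 44.8, 56.4 and 68.4 in controls A, B and C, and that between genes (2R:8647537-8648117) at 71.7, 77.7 and 69.3 in the H1 RNAi lists, against 21.5, 59.3 and 48.4 in the control lists. A region next to bab1, a BTB-domain factor gene (3L:1102367-1102885), stood at 80.9, 75.4 and 80.5 in H1 RNAi A, B and C and at 11.1, 68.6 and 64.5 in controls A, B and C, where control A was near the bottom of its list.

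Hippo and Dpp signalling had the highest shares of the signalling pathways by percentile in the whole list. Of 48 shared regions in Dpp and BMP loci 9 ranked higher (18.8% on both scales) and 2 lower. They were at tkv, the type I receptor, wit, a type II receptor, sog, an extracellular antagonist, shn, brk, salm and Dad. The region in tkv (2L:5237258-5237830) stood at 84.1, 85.4 and 84.2 in H1 RNAi A, B and C, against 63.1, 69.7 and 69.3 in controls A, B and C. The gene shn, whose zinc-finger product represses brk downstream of the receptors, had a pair of them. The first (2R:11202310-11204046) stood at 81.2, 88.4 and 84.0 in H1 RNAi A, B and C, against 62.2, 67.1 and 55.2 in controls A, B and C, and the other (2R:11196746-11197523) at 75.8, 75.3 and 73.1 in the H1 RNAi lists, against 23.8, 62.0 and 43.7 in the control lists. At brk, the repressor of Dpp targets, the member with the wider margin lay in CG1677 (X:7306199-7307028, margin 3.50), and by percentile among shared regions its groups overlapped.

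Of 29 shared regions in Hippo pathway loci 7 ranked higher (24.1%; 34.5% by percentile among shared regions). Another 5 ranked lower (17.2%; 10.3%), beside 10.5 and 10.1% of all shared regions. The 7 lay at kibra (3 regions), ex, sd, CycE and Diap1. Of these, kibra and ex act upstream of the Hippo kinase, and sd encodes the DNA-binding partner of Yorkie. Yorkie is known to activate CycE and Diap1. At 1 region of kibra (3R:14714906-14715245) the groups overlapped by percentile among shared regions. The region at ex (2L:430928-432148) stood at 82.4, 90.0 and 79.9 in H1 RNAi A, B and C, against 44.2, 71.4 and 57.5 in controls A, B and C. In CycE, the cyclin of S-phase entry (2L:15745013-15745903), it stood at 85.0, 85.5 and 79.0 in the H1 RNAi lists, against 72.5, 73.6 and 72.2 in the control lists, and the controls lay close together. The Diap1 region lies in the body of its neighbour Mbs (3L:16051874-16052988) and stood at 72.2, 71.8 and 70.5 in H1 RNAi A, B and C, against 49.9, 54.3 and 35.4 in controls A, B and C. The median summit positions of the groups were 268 bp apart there. In sd (X:15811635-15812536) all 6 values were high, 98.7, 97.9 and 98.5 in H1 RNAi A, B and C and 88.8, 97.0 and 93.7 in controls A, B and C, and the margin was 0.940 points.

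Ecdysone-response loci had 10 of 93 shared regions ranking higher (10.8%) and 3 lower, and 21 of 93 (22.6%) by percentile among shared regions. Eip75B contributed 4 of the 10. Besides EcR they included Eip74EF, an ETS factor that the hormone induces early, at 86.7, 89.7 and 92.6 in H1 RNAi A, B and C, against 48.9, 68.1 and 47.9 in controls A, B and C (3L:17619079-17619526). Regions of Hr4, br, ftz-f1 and E23 belonged to the list as well. Circadian clock loci had 2 of 34 ranking higher (5.88%), at vri and at sgg, and 8 of 34 (23.5%) by percentile among shared regions, so the share on this list was below that of all regions on one scale and above it on the other.

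Progenitor genes had 6 of 54 shared regions ranking higher (11.1%; 16.7% by percentile among shared regions) and 4 lower. Sox21a and neur had the widest margins, followed by kay, the fly Fos (3R:29774553-29774855), at 69.8, 77.2 and 85.2 in H1 RNAi A, B and C, against 58.7, 52.1 and 39.0 in controls A, B and C. The others lay at ttk, emc and Sox100B. In ttk, a BTB zinc-finger repressor of neural fate (3R:31724512-31726463), the values were 68.8, 58.6 and 69.2 in the H1 RNAi lists, against 31.3, 54.8 and 25.7 in the control lists, and control B was the closest to the lowest H1 RNAi value. The median summit positions of the groups were 772 bp apart in ttk, so the lists were not all ranked there on the same summit. The gene end of Sox100B, a further Sox gene of the progenitors (3R:31064971-31065300), held a weak region, with 14.7, 11.5 and 19.6 in H1 RNAi A, B and C and 6.87, 9.35 and 10.3 in controls A, B and C.

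Notch pathway loci had 4 of 32 shared regions ranking higher (12.5%; 18.8% by percentile among shared regions) and 1 lower. Beside the one in neur, mam, the coactivator that Notch recruits to its targets, had a pair of them (2R:14024065-14025361 and 2R:14008224-14009358), with margins of 3.04 and 2.21 points. The last lay at an end of fng, a glycosyltransferase that modifies the Notch receptor (3L:20949249-20950144), and stood at 94.5, 98.1 and 95 in H1 RNAi A, B and C, against 90.3, 88.9 and 91.7 in controls A, B and C. All values at fng were near the top of their lists in both groups.

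EGFR pathway loci had 6 of 54 ranking higher (11.1%; 16.7% by percentile among shared regions) and 5 lower. Ligand, kinase, effector and inhibitor genes were all among them: Krn, Raf, pnt and sty. The region next to Krn, a ligand gene (3L:17655900-17656321, between genes), stood at 83.3, 89.1 and 79.3 in H1 RNAi A, B and C, against 59.6, 69.6 and 65.4 in controls A, B and C. In sty, the Sprouty inhibitor (3L:3420143-3420675), it stood at 84.6, 78.6 and 82.3 in the H1 RNAi lists, against 73.8, 71.6 and 53.4 in the control lists, and by percentile among shared regions the groups overlapped at sty.

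Wingless loci had 4 of 41 ranking higher (9.76%; 14.6% by percentile among shared regions) and 5 lower. The widest margin was in sgg, the GSK3 kinase that restrains Armadillo (X:2642526-2643400), at 79.3, 81.2 and 88.1 in H1 RNAi A, B and C, against 43.0, 61.9 and 39.7 in controls A, B and C. Another shared region of sgg is the one that missed the rule by least. JAK/STAT loci had 2 of 20 ranking higher (10%; 5% by percentile among shared regions) and 2 lower, both of the higher ones in Ptp61F, a phosphatase that restrains the pathway. The wider of these (3L:1349497-1350830) stood at 71.8, 56.9 and 69.3 in H1 RNAi A, B and C, against 13.5, 50.2 and 38.8 in controls A, B and C, and the groups overlapped at the other (3L:1366931-1367665) by percentile among shared regions.

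Stress and growth pathways were mixed. JNK, stress and apoptosis loci had 5 of 43 ranking higher (11.6%) and 4 lower, and by percentile among shared regions 5 higher (11.6%) and 6 lower. In puc, the phosphatase that shuts off JNK (3R:8118727-8120127), the values were 66.9, 72.6 and 81.5 in H1 RNAi A, B and C, against 51.9, 54.0 and 36.8 in controls A, B and C. In cnc, the fly Nrf2 of the oxidative stress response, at an end of fzo (3R:23201074-23201531), they were 96.5, 96.7 and 92.9 in the H1 RNAi lists, against 78.0, 86.6 and 81.7 in the control lists. In puc the median summit positions of the groups were 904 bp apart, so the lists were not all ranked there on the same summit. Insulin and TOR loci had 4 of 31 ranking higher (12.9%) and 6 lower, and by percentile among shared regions 2 of 31 higher (6.45%) and 4 lower. The widest of their margins was in REPTOR, a transcription factor that TOR holds inactive (3R:24564204-24566244), at 75.6, 74.4 and 84.6 in H1 RNAi A, B and C, against 67.7, 51.5 and 44.1 in controls A, B and C, and its groups overlapped by percentile among shared regions. IMD and Toll loci had 2 of 28 ranking higher (7.14%; 21.4% by percentile among shared regions) and 2 lower. One was at an end of imd, the adaptor of the antibacterial pathway, next to Dp1 (2R:18413329-18414253), at 95.4, 95.4 and 93.6 in H1 RNAi A, B and C, against 73.5, 86.5 and 80.7 in controls A, B and C.

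Heat shock loci had the highest share of any list, 4 of 12 (33.3%; 6 of 12, 50.0%, by percentile among shared regions), on few regions, with 0 ranking lower. The 4 were at Hsp22 with Hsp67Bc, at the constitutive chaperone genes Hsc70-4 and Hsc70-3, and at stv, a cochaperone of the BAG family. In Hsc70-4 (3R:15242271-15243861) the values were 63.7, 68.4 and 69.3 in H1 RNAi A, B and C, against 19.0, 54.5 and 31.5 in controls A, B and C. At an end of Hsc70-3, the BiP of the endoplasmic reticulum (X:11807050-11807695), they were 66.8, 88.1 and 68.2 in the H1 RNAi lists, against 51.5, 61.9 and 50.0 in the control lists, with H1 RNAi B well above A and C. The gene end of stv (3L:13477007-13477735) stood at 95.9, 97.6 and 96.7 in H1 RNAi A, B and C, against 76.7, 94.1 and 79.1 in controls A, B and C, where control B came within 1.81 points.

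Cytoskeleton and adhesion genes had 14 of 79 shared regions ranking higher (17.7%; 21.5% by percentile among shared regions) and 5 lower. Near gene ends of mys, the beta integrin gene, and fs(1)h, a bromodomain gene (X:8060648-8062211), the values were 58.5, 57.6 and 68.9 in H1 RNAi A, B and C, against 25.7, 39.5 and 28.0 in controls A, B and C. In RhoGEF2, an activator of Rho1, at its overlap with Dark (2R:17026602-17028549), they were 94.4, 96.6 and 95.1 in the H1 RNAi lists, against 77.2, 76.3 and 77.5 in the control lists, and both groups were tight. Rho1 itself had a region at 91.1, 93.7 and 90.8 in H1 RNAi A, B and C, against 72.8, 84.1 and 76.0 in controls A, B and C (2R:16102620-16105072). Those of the junction and polarity genes aPKC and dlg1 were near the top of all lists, with margins of 0.852 and 0.741 points.

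Lists of chromatin and cell cycle regulators had 1 to 3 regions each. Nucleosome remodelling loci had 3 of 32 ranking higher (9.38%; 25% by percentile among shared regions) and 2 lower, at Mi-2, Act5C and osa, a subunit gene of the Brahma complex. Polycomb group loci had 1 of 24 (4.17%; 8.33%) and 1 lower, in jing (2R:6548349-6548806, margin 8.03). Loci of HP1, H3K9 methylation and heterochromatin silencing had 1 of 10 (10% on both scales) and 1 lower, in wde, a cofactor gene of an H3K9 methyltransferase (2R:10806567-10807995), at 61.2, 58.2 and 47.7 in H1 RNAi A, B and C, against 15.2, 40.1 and 39.8 in controls A, B and C. Cell cycle and replication loci had 1 of 24, the region in CycE (4.17%; 16.7%), and 2 lower.

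Genes of differentiated gut cells and of other tissues had few shared regions. Enteroendocrine loci had 0 of 16 ranking higher and 0 lower, and 1 of 16 on each side by percentile among shared regions. Enterocyte loci had 4 of 34 (11.8%; 20.6%) and 5 lower, and the higher ones lay at the transcription factor genes srp, GATAe and dve. Digestive enzyme genes such as Amy-d, Jon25Bii and Lip3 had no peak at a gene end in any list, so little can be read from their absence. In GATAe, the GATA factor that the midgut needs throughout life (3R:16011746-16012366), the values were 60.5, 69.7 and 80.4 in H1 RNAi A, B and C, against 55.8, 52.7 and 57.1 in controls A, B and C, and by percentile among shared regions the groups overlapped, with a margin of -0.730 points. Of 2 members in dve, a homeobox gene of the midgut, one lay at a gene end (2R:22243653-22244345, margin 2.58) and the other in the body at the very top of all lists (2R:22270384-22271502, margin 0.137).

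Visceral muscle loci had 4 of 19 ranking higher (21.1%; 26.3%) and 1 lower, of which 2 lay in the tropomyosin gene Tm1, 1 in Mef2 and 1 in Msp300. In Mef2, the MADS-box factor of muscle, which other cells also use (2R:9955111-9955717), the values were 96.2, 96.1 and 93.5 in H1 RNAi A, B and C, against 79.7, 85.1 and 79.0 in controls A, B and C. In Tm1 (3R:15286276-15286989) they were 89.7, 81.6 and 95.2 in the H1 RNAi lists, against 24.0, 68.6 and 71.8 in the control lists, with control A far below the others. Of the visceral muscle genes 26.1, 34.8 and 30.4% carried a peak at an end in H1 RNAi A, B and C, against 21.7, 39.1 and 34.8% in controls A, B and C, where the shares over all protein-coding genes were 35.2, 45.9 and 30.3% in H1 RNAi and 29.0, 53.3 and 45.7% in controls. The part of muscle cells in these regions was not tested. Fat body loci had 2 of 7 ranking higher (28.6%; 42.9%), at srp and Lpin, and 0 lower. Hemocyte loci had 2 of 15 (13.3%; 20%), at srp and ush, and 0 lower. Tracheal loci had 1 of 10 (10% on both scales), at bnl, and 1 lower. Neuronal loci had 1 of 23 (4.35%; 13.0%), at Appl and vnd. There 4 ranked lower (17.4%; 21.7%), beside 10.5 and 10.1% of all shared regions. Germline and follicle loci had 1 of 10 (10%; 0%), at br, and 0 lower. The gene srp is in 5 lists and its single region counts in each.

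The ribosomal protein lists held few members, and of all shared regions at gene ends 5.69% ranked higher. Cytoplasmic ribosomal protein loci had 4 of 51 ranking higher (7.84%; 9.80%) and 6 lower, and mitochondrial ribosomal protein loci 2 of 34 (5.88%; 8.82%) and 1 lower. The widest margin of the cytoplasmic list was 12.5 points for a region in Ubr3, whose locus overlaps that of RpS14b (X:7937642-7938189). None of the 4 regions reached into the body of a ribosomal protein gene, and they lay over the neighbours Ubr3, MTF-1, 14-3-3zeta and Larp4B.

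In their loci 7 genes had 3 or more members, 41 had 2 and 467 had exactly 1. The TSC22-family gene bun had 5 of its 12 shared regions ranking higher and 0 lower, the nuclear receptor gene Eip75B 4 of 19 and 0 lower, and the Tousled-like kinase gene Tlk, a kinase of chromatin assembly, 4 of 12 and 0 lower. The upstream Hippo gene kibra had 3 of 6 and 1 lower, the splicing helicase gene Prp16 3 of 5 and 0 lower, tara 3 of 7 and 0 lower, and CG1677, which overlaps the brk locus, 3 of 8 and 1 lower. In 47 genes the locus held both higher and lower regions.

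In bun the members ran along the gene. The one with the widest margin lay at an end of CG43051, a gene inside bun (2L:12506771-12508169) and stood at 91.2, 92.9 and 94.9 in H1 RNAi A, B and C, against 76.1, 80.7 and 75 in controls A, B and C. Next came one in the body (2L:12520335-12521744) at 92.4, 96.9 and 91.2 in the H1 RNAi lists, against 62.7, 81.3 and 64.8 in the control lists. The other 3 had margins of 0.681, 0.254 and 0.0240 points, so that the count of 5 for bun falls to 2 at a margin of at least 5 points.

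All 4 members of Eip75B, which encodes an early ecdysone-induced receptor of the Rev-erb type, lay in its body with margins of 5.53 to 18.1 points. The widest (3L:17964721-17965055) stood at 83.7, 80.3 and 79.2 in H1 RNAi A, B and C, against 44.4, 61.1 and 46.2 in controls A, B and C. A second (3L:17971206-17971579) stood at 71.5, 82.9 and 71.3 in the H1 RNAi lists, against 34.1, 59.5 and 58.8 in the control lists. A site of the same gene 8669 bp from a member was called in each of the 3 controls but not in H1 RNAi (3L:18011756-18012336), so the locus held sites of both kinds.

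Tlk had margins of 7.03 to 14.0 points. The widest belonged to a region of 284 bp (X:3777254-3777537), at 48.9, 62.3 and 58.9 in H1 RNAi A, B and C, against 15.1, 34.9 and 16.8 in controls A, B and C. One of 469 bp (X:3744477-3744945) stood at 69.6, 75.4 and 72.7 in the H1 RNAi lists, against 31.2, 56.4 and 43.7 in the control lists. The weakest (X:3772838-3773397) ranked low in all lists, at 29.7, 21.6 and 28.4 in H1 RNAi A, B and C and 6.55, 13.4 and 7.06 in controls A, B and C, and its margin by percentile among shared regions was 1.01 points.

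A core of 40 regions met the rule under every one of 11 processing alternatives (other ranked values, percentiles, overlaps and thresholds), and these were picked out after the values were seen. The 11 alternatives are not separate checks, since all use the same peaks. Adding the sequences outside the major arms held all 386, and ranking among major-arm peaks alone held 381. Ranks of −log10 p and of −log10 q held 228 each. Alternatives with a minimum q-value or fold keep strong peaks alone, and the H1 RNAi percentiles of the 40 were all 87.2 or more. They included a region in sd, gene ends at wit, imd, cnc, stv and Pvf1, a growth factor gene of the PDGF and VEGF type (X:18832253-18832732, margin 1.33), and regions in Tet, the TET-family dioxygenase gene (3L:2820826-2821426, 2.46), Abd-B, the most posterior Hox gene (3R:16948631-16948851, 2.35), and sqz, a zinc-finger gene (3R:19165599-19166138, 12.9). The region in Abd-B, of 221 bp, stood at 99.5, 99.6 and 99.6 in H1 RNAi A, B and C, against 94.7, 97.1 and 97.2 in controls A, B and C. The widest margin among the core in a named gene was that of Men, the malic enzyme gene (3R:12719536-12720142, 13.4), at 96.7, 98.3 and 96.2 in H1 RNAi A, B and C and 71.4, 82.7 and 78.2 in controls A, B and C.

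Some sites that were called in 1 group alone lay near the 386. Of 70 major-arm regions called in all 3 controls and no H1 RNAi list, 16 lay in a locus that also held a member and 10 within 5 kb of one. The closest was in shn (2R:11204483-11204939), 436 bp from a region that ranked higher in H1 RNAi, and others lay 1420 bp away in S6k, 1960 bp away in Imp, 2098 bp away in GATAe and 4356 bp away in Mi-2. How often other regions lie in such a locus or so near a member was not counted, so these counts are a description only. The nearest shared region of these 70 ranked higher in 10 (14.3%) and lower in 5 (7.14%), beside 9.09 and 10.5% of all shared regions. Of 20 regions called in all 3 H1 RNAi lists and no control, only that at Sox21a lay within 5 kb of a member, and the nearest shared region ranked higher in 1 and lower in 4.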

How the data were processed

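ATAC-seq peak lists of 3 H1 RNAi and 3 control samples of sorted midgut progenitors were used, grouped by the labels, 1 narrowPeak list per sample. Trim Galore, Bowtie2, Picard and MACS2 were run on the dm6 build, per the submitters' processing notes, and versions, settings and any shift for the Tn5 cut were not given in the sources used here. Peak positions, an integer score and the fold enrichment over local background (a ratio) stand in the lists as the authors deposited them. The −log10 p-value and −log10 q-value of each peak are likewise the authors' deposited values. Read depth is unknown, so intervals cover counting of regions only.

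Peaks were merged and ranked within each list (mean rank of ties) with Python 3.11.15, pandas 2.3.3, numpy 2.4.6 and scipy 1.17.1, and the merging was checked against bedtools 2.31.1. The rule was tested on simulated lists with raised regions. Gene positions are from the NCBI table of dm6 (13962 protein-coding genes, with no strand, exons or sequence), so the planned motif and base composition search was not run and no sequence is shown. Of the gene-list names 13 were not matched and 28 were matched through other names.

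The members, the gene lists and most settings were chosen with earlier results of these data known. Named regions were, in loci of genes with a symbol other than a CG or CR number, the 20 widest margins, up to 4 per list, loci with 3 or more members, and the 3 regions nearest to the limit on either side. Further regions named from the lists and from the core of 40 were picked after their values were seen. Each replicate was its own collection of guts by the labels. Samples with the same letter deviated together for B but not for A and C (correlations over shared regions of -0.130, 0.176 and -0.199 for A, B and C), so the letters were not taken as pairs.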

Additional observations from a re-analysis of the deposited data

Results flagged for a closer look

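Outside the major arms, 119 regions were called in all 6 lists, and 3 of them had all H1 RNAi percentiles above all control ones. On the major arms it was 386 of 4247 (9.09%), a higher share. The 3 regions were not part of the comparisons above and are given here because they met the rule in data left out of them. A region in zfh2, a zinc-finger homeobox gene on chromosome 4 (4:507104-508735), stood at 80.7, 79.4 and 82.4 in H1 RNAi A, B and C, against 64.8, 77.5 and 68.9 in controls A, B and C, a margin of 1.81 points. It was the only such region among 34 shared regions of chromosome 4. Among 71 shared regions on the sequence named TE, 1 ranked higher (positions 190268 to 191398), at 92.8, 97.8 and 95.8 in H1 RNAi A, B and C, against 80.2, 92.3 and 88.9 in controls A, B and C, a margin of 0.447 points. On an unplaced scaffold a region of 290 bp (positions 621 to 910) stood at 89.4, 71.0 and 61.8 in H1 RNAi A, B and C, against 61.4, 12.8 and 45.1 in controls A, B and C, a margin of 0.391 points. These differences were not tested.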

How the results depend on the processing

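Ranks within a list compare sites inside one library, and with 3 samples against 3 an exact permutation test of a single region cannot go below p = 0.1. Of the 386 regions, 166 had a margin of at least 5 points. Peaks with a −log10 q of at least 10 gave 192 regions, from shorter lists, and held 179 of the 386 (46.4%). With a fold of at least 4, 295 of 1707 shared regions (17.3%) ranked higher and 80 lower, and 180 of the 386 (46.6%) were held. The remaining settings of rank, overlap, chromosome and threshold gave 266 to 576. Leaving out 1 list at a time gave 418 to 704 regions, the lowest without H1 RNAi B and the highest without control B, and 656 without H1 RNAi A. A rule on fewer lists is looser. With the letter as a replicate block, meaning H1 RNAi above the control of the same letter in all 3 pairs, 675 regions ranked higher, also by a looser rule. Only the B samples each correlated best with their own letter. With a window of 1000 bp the gene-end share of the 386 was 39.6% (50.5% over all shared regions) and the gene-body share 51.0% (40.4%). The gene-end share ran between 23.6 and 30.7% when a list was left out, and was highest without H1 RNAi C. By percentile among shared regions, chosen after seeing the data like the classes by level, width and arm, the share in the unused letter was 62.3% for A and 81.0% for B. Under the same percentile 13 of the 30 gene-list counts moved by over 1.5 times, against 3 with gene bodies alone and 5 with flanks of 5 kb.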
